A study of Mus musculus with 15 samples.

Results

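The comparison described here is that of 4T1 cells treated with blueberry gold nanoparticles (BLU-A) against untreated 4T1 cells, by bulk RNA-seq of total RNA after removal of ribosomal RNA. 4T1 is a mouse mammary carcinoma line that is widely used as a model of triple-negative breast cancer, and the labels give every sample the genotype WT. The members were chosen by the treatment label alone, which gave 6 of the 15 samples of the series, 3 labelled BLU-A and 3 untreated. The other 9 samples were given an extract of blackberry (BLA) or of blueberry (BLU), or blackberry gold nanoparticles (BLA-A). BLU is an ethanol extract of freeze-dried blueberry powder, and BLU-A was made by mixing that extract with gold chloride, so that BLU-A-treated cells received both gold and berry compounds. Treated cells received the agent after seeding, and all cells were grown in the same serum-containing medium. No group given gold particles without a berry extract was analysed here.

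A sequencing report among the study's supplements lists 1 set of raw reads per condition with 3 subsets of reads, while a second report counts the 15 as libraries and the methods take replicates as independent unless stated otherwise. The 3 columns of untreated cells differed by less than the sampling noise, with a chi-square per degree of freedom of 0.25 over 19504 genes, and those of BLU-A-treated cells likewise, with 0.329 over 18263 genes. Their mean was therefore used as 1 sample per condition, and no p-value was computed. The totals were 25778154 counts in untreated cells and 25721345 in BLU-A-treated cells, within the range of 25613778 to 26956442 over the 5 libraries, and 3 counts corresponded to 0.113 CPM (read counts scaled to a common library size) in both. Each sample carries a date of its own as its batch label, so date and treatment cannot be told apart. Intervals given below are exact 95% binomial intervals and cover counting error only. The epithelial origin of the cells was seen in both libraries, where the 8 of 8 mammary epithelial markers, among them Krt8, Krt18 and Epcam, summed to 1357 CPM in untreated and 1197 CPM in BLU-A-treated cells. Markers of other cell types were low, with 20.7 and 20.1 CPM for the macrophage list (Lyz2 at 0 in both), 0.15 and 0.717 CPM for lymphocytes (Cd3d and Cd79a at 0 in both), and 7.32 and 6.23 CPM for endothelium. The fibroblast list summed to 94.2 and 94.1 CPM, of which Pdgfra made up 90.4 and 92.2 CPM, while Lum and Thy1 were at 0.

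Berry extracts are rich in anthocyanins and other phenolic compounds, which can reduce gold salts to metal and coat the particles that form. Cells take up such particles mainly by endocytosis, and the responses usually looked for after metal or phenolic exposure are those of the metallothioneins, the NRF2 antioxidant program, heat shock proteins and the unfolded protein response. Metallothioneins are small cysteine-rich proteins that bind zinc and copper, and their promoters carry metal response elements, the binding sites of the zinc-sensing factor MTF-1.

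The metallothionein genes were lower in BLU-A-treated cells than in each of the other 4 libraries. Mt1 had 2270 counts in untreated and 1148 in BLU-A-treated cells, and the columns held 2274, 2263 and 2273 against 1151, 1170 and 1124 counts. Its level was 85.2 CPM in untreated cells, 75.1 CPM with BLA, 70.3 CPM with BLU, 61.2 CPM with BLA-A and 43.3 CPM with BLU-A. The ratio of BLU-A-treated to untreated cells was 0.509 (95% interval 0.473 to 0.546), a log2 fold change of -0.97 on TMM-normalized CPM plus 0.5, just short of the threshold of 1 in size used here. Mt2 fell past it, from 18.3 to 8.75 CPM (log2 fold change -1.02), and stood at 12.9, 16.0 and 31.8 CPM in BLA-, BLU- and BLA-A-treated cells. Slc30a1, a zinc exporter and a further target of MTF-1, was at 2.36 CPM in untreated and 1.02 CPM in BLU-A-treated cells (log2 fold change -0.92), and at 0.871 CPM in BLU-treated cells. Mt1 and Slc30a1 fall outside the naming rule and were picked with their values known.

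The promoters of these 3 genes, which were lower in BLU-A-treated cells, are shown with their matches to the metal response element. The windows are those of RefSeq on GRCm38.p6, from 250 bases before to 50 bases after the annotated start, all on the plus strand. Capitals mark the core of the metal response element, TGCACNC or TGCGCNC on either strand, and the matches in the 3 windows shown do not overlap.
Mt1, chr8:94178839-94179138: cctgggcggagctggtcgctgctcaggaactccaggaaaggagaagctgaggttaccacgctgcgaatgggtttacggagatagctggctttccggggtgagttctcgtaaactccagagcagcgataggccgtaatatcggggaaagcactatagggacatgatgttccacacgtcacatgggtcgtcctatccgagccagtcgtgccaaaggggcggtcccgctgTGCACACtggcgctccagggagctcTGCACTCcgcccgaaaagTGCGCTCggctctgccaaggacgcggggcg
Mt2, chr8:94172368-94172667: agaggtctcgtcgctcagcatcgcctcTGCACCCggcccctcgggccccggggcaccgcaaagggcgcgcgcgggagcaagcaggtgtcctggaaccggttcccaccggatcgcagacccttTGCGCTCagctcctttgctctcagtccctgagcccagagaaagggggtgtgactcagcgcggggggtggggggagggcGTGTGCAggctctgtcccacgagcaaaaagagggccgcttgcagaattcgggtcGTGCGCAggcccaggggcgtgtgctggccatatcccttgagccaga
Slc30a1, chr1:191906531-191906830: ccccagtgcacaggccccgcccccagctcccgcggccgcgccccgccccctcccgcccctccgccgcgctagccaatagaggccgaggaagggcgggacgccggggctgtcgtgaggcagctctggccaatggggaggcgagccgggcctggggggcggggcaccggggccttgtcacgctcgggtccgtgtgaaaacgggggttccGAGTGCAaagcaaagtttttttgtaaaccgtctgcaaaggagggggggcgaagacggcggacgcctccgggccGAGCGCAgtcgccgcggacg
The Mt1 window held 3 matches, that of Mt2 held 4 and that of Slc30a1 held 2. Of the 32851 promoters in the table, 25.7% held at least 1 match, 7.11% at least 2, 1.97% at least 3 and 0.517% at least 4. Of 17 promoters of the metal list, 8 held a match, among them that of the copper exporter Atp7a with 2, as many as Slc30a1. In 1 of the Tfrc windows, 2 matches on opposite strands that share bases were counted apart. The shares of promoters with several matches may hold such pairs too. Atp7a was not lower in BLU-A-treated cells. A match is a description of the letters and not a measurement of binding.

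The whole list of metallothioneins and metal transporters, these 3 genes included, lay near 0. Of its 18 members tested, 1 passed a log2 fold change of -1 (beside 4.5% of all genes tested) and none passed 1, and the median was -0.0707 beside 0.00148 over all genes tested. Slc39a10, a zinc importer, was at 78.2 CPM in untreated cells and 111 CPM in BLU-A-treated cells (log2 fold change 0.51), and Tfrc, the transferrin receptor, was at 334 CPM in untreated cells and 273 CPM in BLU-A-treated cells. The copper exporter Atp7a was at 57.0 and 69.5 CPM and the importer Slc31a1 at 37.7 and 30.1 CPM in untreated and BLU-A-treated cells, both picked with their values known.

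Across the transcriptome, 591 of 17647 genes tested rose in BLU-A-treated cells (3.35%) and 794 fell (4.5%) past 1 on the log2 scale, on TMM-normalized CPM plus 0.5. At a threshold of 0.5, 2280 genes (12.9%) were higher and 2111 (12.0%) were lower. Of the genes past 1 in size, many were read at low level, since the larger of the 2 levels was under 2 CPM for 231 of those that rose (39.1%) and 468 of those that fell (58.9%). Among the 9968 genes with at least 10 CPM in either library, 103 rose (1.03%) and 30 fell (0.301%), while 653 were over 0.5 (6.55%) and 199 under -0.5 (2.0%). At this level 91.5% of the genes lay within 0.5 of 0 and the median size of the difference was 0.167. Chromosome medians of these genes ran from -0.0202 to 0.0406. Counting error alone left 361 of the genes that rose and 535 of those that fell with an interval wholly past the threshold.

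**Figure D1:**
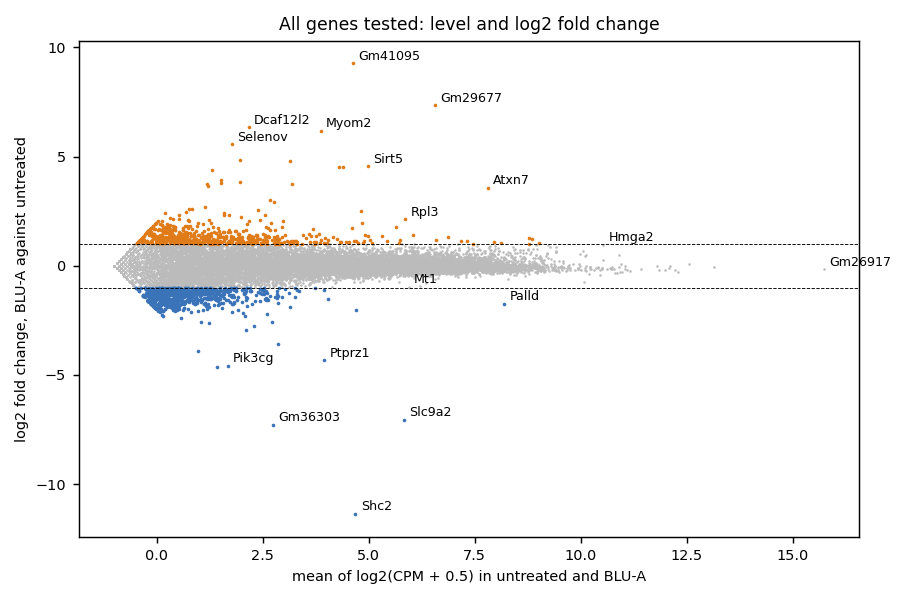
Each point is 1 of the 17647 genes tested, with the mean of log2(CPM + 0.5) in untreated and BLU-A-treated cells on the x axis and the log2 fold change on the y axis; orange points are over 1, blue points under -1, and dashed lines mark the thresholds. Most genes lie near 0, the spread is widest at low level, and a few genes such as Gm41095, at 9.27, stand far from the rest.

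The genes that rose most did so from low levels, and the other treatments had low levels of them too. Gm41095, a predicted gene with no assigned function (chromosome 14 from 14022727 to 14090697 of GRCm39), had 12, 11 and 17 counts in the untreated columns and 16204, 16086 and 16140 in the BLU-A columns. Its level went from 0.488 to 609 CPM, a ratio of 1249 (730.0 to 2346), while BLA-, BLU- and BLA-A-treated cells were at 1.43, 0.254 and 0.345 CPM. Gm29677, a second predicted gene (chromosome 18 from 68531175 to 68699218), went from 184 to 31897 counts, or from 6.90 to 1204 CPM, and had at most 6.17 CPM in the other treatments. Both values lie far outside the range of the other 4 libraries. Dcaf12l2, a WD-repeat gene of the DCAF12-like family (chromosome X from 43454335 to 43457219), had 0 counts in the other 4 libraries and 1052, 1044 and 1068 counts in the BLU-A columns, or 39.8 CPM. This is at least 354-fold higher than the floor of 3 counts in the untreated library.

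Several of these genes are known from muscle, testis or nerve. Myom2, which encodes an M-band protein of the striated muscle sarcomere (chromosome 8 from 15107272 to 15183541), had 32 counts in untreated and 3281 in BLU-A-treated cells, 1.20 and 124 CPM. Selenov, a selenoprotein gene known mainly from testis (chromosome 7 from 27984077 to 27990611), had 0 and 608 counts, at least 204-fold higher and at 22.9 CPM. Grm7, a metabotropic glutamate receptor gene (chromosome 6 from 110622542 to 111544191), went from 3.60 to 95.05 CPM, a ratio of 26.4 (21.5 to 32.7). Slc25a18, a mitochondrial glutamate carrier (chromosome 6 from 120750346 to 120777941), went from 3.90 to 101 CPM, and was at 8.02 CPM in BLU-treated cells. Sirt5, the mitochondrial desuccinylase (chromosome 13 from 43518856 to 43550487), had 153, 166 and 162 counts in the untreated and 3975, 4016 and 4045 in the BLU-A columns. Its level was 6.004 CPM in untreated cells, 11.5 CPM with BLA, 9.47 CPM with BLU, 5.22 CPM with BLA-A and 151 CPM with BLU-A, a ratio of 25.2 over untreated cells (21.5 to 29.7). The remaining members of the 10 largest rises are the predicted genes Gm33292, from 6 to 537 counts, and Gm29571, from 31 to 1217 counts.

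**Figure D2:**
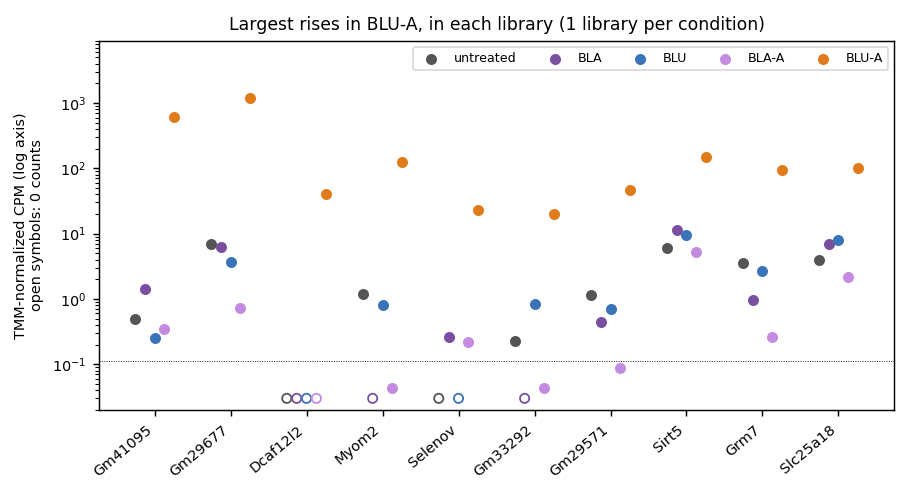
The TMM-normalized CPM (log axis) of the 10 genes of largest rise is shown in each of the 5 libraries, 1 point per library; open symbols at the bottom are libraries with 0 counts, and the dotted line is 3 counts (0.113 CPM). For each gene the orange BLU-A point stands above the 4 others, which stay under 12 CPM.

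The 10 genes together took 0.00243% of the counts in untreated and 0.249% in BLU-A-treated cells. Genes that overlap 5 of them were read as follows. Cfap20dc, which overlaps Gm41095, was at 4.16 CPM in untreated cells and 3.66 CPM in BLU-A-treated cells, and Mc2r, the corticotropin receptor gene that overlaps Gm29677, was at 1.28 and 1.21 CPM. Atp6v1e1, a proton pump subunit that overlaps Slc25a18, was at 43.5 and 41.4 CPM. The counts in untreated and BLU-A-treated cells were 7 and 13 for Gm30700, which also overlaps Gm29677, 0 and 11 for Smlr1, which overlaps Gm29571, and 4 and 9 for Gm20387, which overlaps Grm7. These last 3 had more counts in BLU-A-treated cells, with counting intervals of the ratio that held 1 for Gm30700 and Gm20387. Of the 80 nearest neighbours in RefSeq order of the 20 largest rises, 26 passed the filter on low values, and their log2 fold changes ran from -0.68 to 1.28 with a median of -0.085. A single neighbour, Il3ra beside Atxn7, passed 1. Atxn7, a subunit of the SAGA deubiquitinase module (chromosome 14 from 8362441 to 8508505), itself rose from 64.3 to 767 CPM, and the other treatments had 106, 106 and 71.6 CPM. Il3ra was noted with its value known.

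Some genes stood apart in BLU-A-treated cells from all 4 other libraries. By over 1 on the log2 scale, 84 genes were above the highest of the others (0.476% of those tested) and 15 below the lowest (0.085%), of which 29 and 0 had 10 CPM. A gene read in BLU-A-treated cells alone can be counted as above, whereas one counted as below has to be read in all 4 others, so the 2 counts were not compared. Meg3, an imprinted lncRNA (chromosome 12 from 109506877 to 109538165), was at 0.525 CPM in untreated and 14.3 CPM in BLU-A-treated cells and under 0.1 CPM in the other treatments. Rpl3, a core protein of the large ribosomal subunit, had 724, 741 and 721 counts in the untreated and 3217, 3142 and 3247 in the BLU-A columns. It rose from 27.4 to 121 CPM against 18.5, 22.6 and 10.9 CPM in BLA, BLU and BLA-A. Cdh6, a classical cadherin, rose from 2.10 to 10.7 CPM, and was at 0.254 CPM with BLU and 0.129 CPM with BLA-A.

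Below all other libraries, the distances were smaller. Zc3h10, a zinc finger protein that binds RNA, fell from 10.8 to 3.66 CPM (ratio 0.339, 0.266 to 0.428), with 6.61, 6.60 and 9.88 CPM in the other treatments. Ppip5k1, a kinase that makes inositol pyrophosphates, was at 15.5 CPM in untreated and 8.79 CPM in BLU-A-treated cells, and at no less than 13.8 CPM elsewhere. Stk11ip, a partner of the kinase LKB1, was at 10.5 and 6.60 CPM, and the metalloprotease gene Adamts7 at 14.8 and 10.1 CPM. Mt2 is the fifth gene that this ranking named.

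The largest falls led to near 0 and were mostly read near 0 in the other treatments as well. Shc2, an adaptor of receptor tyrosine kinases (chromosome 10 from 79453760 to 79473769), had 35169 counts in untreated and 0 in BLU-A-treated cells, at least 11658-fold lower. Slc9a2, a sodium-proton exchanger, went from 657 to 4.41 CPM, 149-fold lower (124 to 180.1). Pik3cg, the catalytic subunit of PI3K gamma, went from 403 to 4 counts, and Ptprz1, a receptor tyrosine phosphatase, from 68.7 to 2.94 CPM. Fam20a, a pseudokinase of the secretory pathway, fell from 24.9 to 1.58 CPM, Agtr1a, an angiotensin receptor gene, from 12.2 to 1.40 CPM, and Zfp423, a zinc finger transcription factor, from 15.6 to 2.19 CPM. The predicted genes Gm36303, Gm46392 and Gm36372 complete the 10, at 2201, 344 and 301 counts in untreated and 1, 1 and 28 in BLU-A-treated cells. The 10 genes took 0.23% of the untreated and 0.00142% of the BLU-A counts. All treatments share the 1 untreated library in these comparisons.

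The abundant genes changed little. The 10 that took most reads in BLU-A-treated cells held 10.8% of the counts in untreated and 9.76% in BLU-A-treated cells, an order of reads and not of levels per length. The predicted gene Gm26917, to which the annotations used here gave no type, alone took 5.94% of the untreated counts (95% interval 5.93 to 5.95). It took 5.28% of the BLU-A counts (5.27 to 5.29). Eef1a1, the elongation factor that brings tRNA to the ribosome, took 0.959% and 0.913%. Ahnak, a giant scaffold protein, took 0.578% and 0.468%, and Actb, cytoplasmic actin, 0.529% and 0.454%. Vim, the intermediate filament protein of mesenchymal cells, took 0.405% and 0.358%. Of the mitochondrial genome, the cytochrome oxidase gene COX1 took 0.606% and 0.639% and the complex I gene ND5 took 0.371% and 0.368%. Fn1, fibronectin, was at 0.459% and 0.451%.

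The largest gain in reads after Gm29677 was that of Hmga2, an architectural chromatin protein that let-7 holds low in adult tissue. It was at 1053 CPM in untreated cells, 2637 CPM with BLA, 2515 CPM with BLU, 1834 CPM with BLA-A and 2060.0 CPM with BLU-A (log2 fold change 0.97, ratio 1.96, 1.93 to 1.99). Gm51785, a predicted gene that overlaps Hmga2, rose from 301 to 704 CPM, and 1700006J14Rik, a further one, from 39.7 to 106 CPM. Reads of overlapping genes may not be fully separable in this counting. The other treatments had more Hmga2 than untreated cells too, and BLA- and BLU-treated cells more than BLU-A-treated cells.

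Several other long and well-read genes differed in the same direction as Hmga2. Maml3, a coactivator of Notch receptors, rose from 282 to 688 CPM (ratio 2.44), and Maml2, of the same family, was at 426 CPM in untreated cells and 832 CPM in BLU-A-treated cells (log2 fold change 0.96). Wwox, an oxidoreductase gene at a common fragile site, rose from 107 to 237 CPM, and Lsamp, a neuronal adhesion gene, was at 47.4 and 87.5 CPM. Glis3, a zinc finger transcription factor, was at 507 and 923 CPM, Trps1, a GATA-type repressor of mammary epithelium, at 834 and 1347 CPM, and Pvt1, the lncRNA beside Myc, at 352 and 684 CPM. Glis3 and Trps1 were picked with their values known, and Maml3 and Wwox were also named by the study on these samples. In each of these genes BLU-treated cells stood above BLU-A-treated cells. Not all long and well-read genes were higher. Cntnap2 was at 232 CPM in untreated and 203 CPM in BLU-A-treated cells, and Filip1l at 1340 and 1034 CPM.

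The differences varied with the length of the gene and with its level. Among genes with a mean of at least 10 CPM over the 5 libraries, the median log2 fold change was -0.105 in 579 genes under 5 kb, 0.209 in 1201 genes of 100 to 300 kb and 0.453 in 224 genes of 300 to 1000 kb, introns included. In the last bin 46.9% of the genes were over 0.5. Genes read at 1 to 10 CPM went the other way at these lengths, with medians of -0.24 in 503 genes, -0.717 in 271 genes of 300 to 1000 kb and -0.881 in 37 genes over 1000 kb, of which 83.8% were under -0.5. The 20 well-read genes over 1000 kb had a median of -0.263. The same bins in BLU-treated cells gave 0.701 for well-read genes of 300 to 1000 kb and -0.544 for weakly read ones. In BLA-A-treated cells they gave 0.239 and -2.06, all against the same untreated library.

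**Figure D3:**
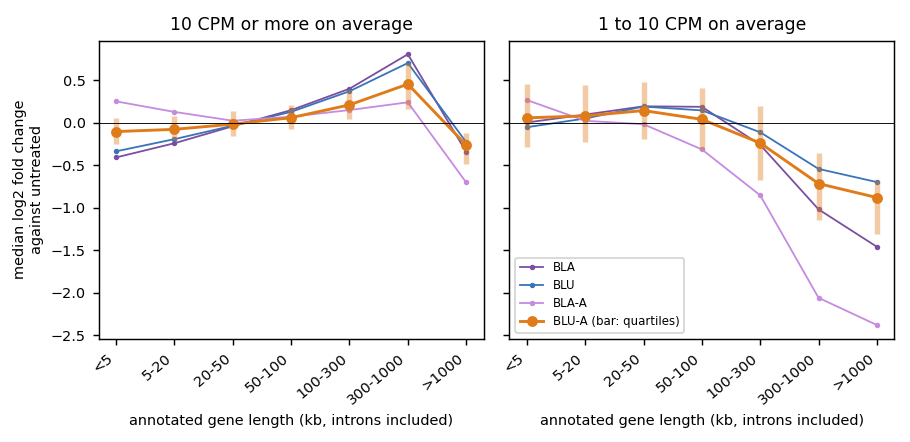
The median log2 fold change against untreated cells is plotted for genes binned by annotated length in kb (x axis), for genes with a mean of 10 CPM or more (left) and of 1 to 10 CPM (right), with 1 line per treatment and quartiles of the genes as bars for BLU-A. The BLU-A line rises to 0.453 at 300 to 1000 kb on the left and falls to -0.881 beyond 1000 kb on the right.

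A measure of reads from genes that mammary cells are not known to use moved in the same direction as the weakly read long genes. The 1339 odorant and vomeronasal receptor genes in the table, a list added after the data were seen, summed to 94.9 CPM in untreated and 61.5 CPM in BLU-A-treated cells, and to 74.1, 59.3 and 39.6 CPM in BLU-, BLA- and BLA-A-treated cells. Of them, 210 had a count in untreated and 131 in BLU-A-treated cells. The part of such reads in the falls of weakly read genes was not tested.

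The long neuronal genes had the lowest median of the 48 lists, at -0.688, with 11 of 46 under -1 and 2 over 1, beside 4.5% and 3.35% of all genes tested. With the 30 genes of 10 CPM alone the median was -0.384. All genes of 300 to 1000 kb read at 1 to 10 CPM had a median of -0.717, so weakly read long genes in general were as low. The part of length and level in this list was not tested. The list holds adhesion and receptor genes of axons and synapses. Ptprd, a receptor phosphatase of synapses, fell from 12.6 to 2.34 CPM, Rbfox1, a splicing factor of neurons, from 16.5 to 4.04 CPM, and Robo2, an axon guidance receptor, from 12.5 to 3.47 CPM. Robo2 was at 12.2 CPM in BLU-treated cells. Ntm and Opcml, adhesion genes of the same family as Lsamp, fell from 9.98 to 3.06 and from 12.9 to 5.09 CPM. The 2 that rose are Grm7 and Wwox. Rbfox1 and Wwox were also named by the study on these samples, so their choice is not independent of their direction.

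The cadherins and desmosomal genes had the next lowest median, -0.247, with 6 of 32 under -1 and 1, Cdh6, over 1, beside 4.5% and 3.35% of all genes tested. Those 6 below were Cdh22, the neuronal catenin Ctnna2, Dsg3, Cdh13 (27.7 to 9.21 CPM), Cdh8 (8.18 to 2.08 CPM) and Cdh18 (11.1 to 4.00 CPM). All 6 were also named by the study from these samples, so the count under -1 is not independent of that choice. Dsg3, a desmoglein of stratified epithelium, had 188 counts in untreated and 0 in BLU-A-treated cells, at least 62.3-fold lower. Cdh1, E-cadherin, was at 124.0 and 126.0 CPM, and the catenins Ctnnb1 and Ctnna1 were at 626 and 565 CPM and at 379.9 and 370.0 CPM. With genes of 10 CPM alone the median was -0.145. Ctnna2, Cdh13, Cdh18 and Cdh8 span 1098, 1041, 925 and 393 kb. All genes of 300 to 1000 kb read at 1 to 10 CPM had a median of -0.717, and those over 1000 kb -0.881. Well-read genes over 1000 kb had -0.263. The part of length and level in this list was not tested either.

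The stress programs did not rise as groups in BLU-A-treated cells. None of the 31 NRF2 target genes passed 1 in size, beside 3.35% higher and 4.5% lower of all genes tested. Of the 31, 28 had 10 CPM, and of all genes at that level 1.03% rose and 0.301% fell. With shares this small, none past 1 sets the list little apart from other well-read genes. The median of the list was -0.107, with 23 below 0, beside 0.00148 over all genes tested. Hmox1, heme oxygenase, had 96 counts in untreated and 131 in BLU-A-treated cells, a ratio of 1.37 (1.05 to 1.80), and was at 22.6 CPM in BLA-A-treated cells against 4.94 CPM here. Nqo1, a quinone reductase, was at 15.7 and 12.8 CPM, Gclm, the modifier subunit of glutathione synthesis, at 28.4 and 20.2 CPM, and Txn1, thioredoxin, at 161 and 123 CPM. The mitochondrial superoxide dismutase Sod2 was at 35.8 and 25.02 CPM. These 5 were picked with their values known.

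The heat shock list had a median of -0.241, with 15 of 20 below 0. None passed 1 in size, beside 3.35% higher and 4.5% lower of all genes tested. Well-read genes under 5 kb had a median of -0.105, and the part of gene length in the stress lists was not tested. Hsp90aa1, the inducible cytosolic HSP90, was at 484 CPM in untreated cells, 332 CPM with BLA, 385 CPM with BLU, 355 CPM with BLA-A and 353 CPM with BLU-A (ratio 0.730, 0.711 to 0.750), so that the 4 treated libraries all stood below the untreated one. Hspa4 was at 398 and 297 CPM, and the mitochondrial chaperonin Hspd1 at 621 and 521 CPM. The unfolded protein response list had a median of -0.128 over 22 genes, with Hspa5, the main chaperone of the endoplasmic reticulum, at 2481 and 2132 CPM. The integrated stress response list had a median of -0.0945 over 23 genes. Its transcription factor Atf4 was at 294 and 241 CPM, while Atf3 was at 43.2 and 59.4 CPM and Ddit3, also called CHOP, at 14.1 and 20.4 CPM. Atf3, Ddit3 and Hspa4 were picked with their values known.

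The growth lists were slightly lower as groups, each with few or no members past 1 in size. Over all genes tested the median was 0.00148, with 3.35% higher and 4.5% lower past 1. Well-read genes under 5 kb had a median of -0.105 and those of 5 to 20 kb -0.0789, so short genes in general were slightly lower too. The part of gene length in these lists was not tested. Ribosome biogenesis had a median of -0.195 with 22 of 26 below 0, the nuclear genes of the respiratory chain -0.179 with 32 of 36 below 0, and the proteasome -0.186 with 27 of 33 below 0. Ncl, nucleolin, was at 2072 CPM in untreated cells and 1647 CPM in BLU-A-treated cells (ratio 0.795, 0.785 to 0.805), and Myc at 235 and 191 CPM. Psmd7, a proteasome lid subunit, was at 243 and 193 CPM, and Atp5f1b, the catalytic subunit of ATP synthase, at 552 and 457 CPM. Sterol and fatty acid synthesis had a median of -0.169 over 30 genes, with Fasn at 720.3 and 622 CPM and Hmgcs1, chosen after its values were seen, at 215 and 152 CPM. Of 76 cytosolic ribosomal protein genes, many of which have near-identical pseudogenes, 1 passed 1, beside 3.35% of all genes tested. This was Rpl3, and the median of the list was -0.135. Rpl4 was at 1857 and 1695 CPM and Rpl32 at 455 and 487 CPM.

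Proliferation genes showed small differences. The mitotic list had a median of -0.0754 over 38 genes, with none past 0.5 in size. Of all genes with 10 CPM, 6.55% were over 0.5 and 2.0% under -0.5. Mki67, the Ki-67 antigen, was at 2143 CPM in untreated cells and 1781 CPM in BLU-A-treated cells (ratio 0.831, 0.821 to 0.841), and Top2a at 1807 and 1614 CPM. The DNA replication list had a median of -0.14 over 40 genes, with Mcm6, a subunit of the replicative helicase, at 374 and 328 CPM and Ccnd1, cyclin D1, at 1179 and 1019 CPM. Replication-dependent histone genes, whose copies are hard to tell apart in counting, had a median of -0.168, beside -0.926 in BLU-treated cells. H4c4 was at 1401 CPM in untreated, 1310.3 CPM in BLU-A-treated and 795 CPM in BLU-treated cells. The 7 mitochondrially encoded protein genes tested had a median of -0.0337, beside -0.351 in BLU- and 1.0 in BLA-A-treated cells. With 1 library per condition, the difference between treatments has no test.

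**Figure D4:**
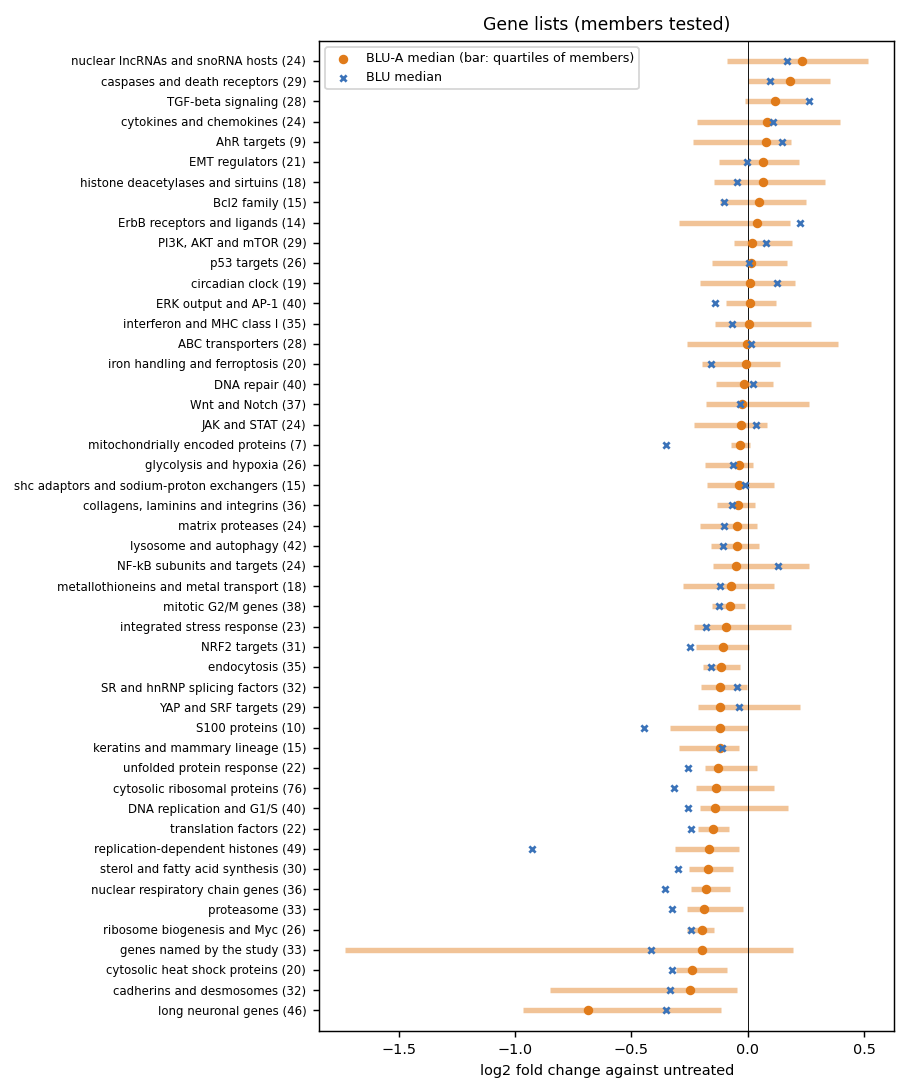
Each row is 1 of the 48 gene lists, with the number of members tested in parentheses; the x axis is the log2 fold change against untreated cells, the orange point the BLU-A median, the bar the quartiles of the members and the blue cross the BLU median. Most BLU-A medians lie between -0.25 and 0.25, with the long neuronal genes at -0.688 at the bottom and the nuclear lncRNAs at 0.232 at the top; the genes named by the study were chosen on these samples.

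Of the 48 lists, 34 had a median below 0 and 14 above, with 3 over 0.1 and 19 under -0.1, and 21 had no member past 1 in size. The nuclear lncRNAs and snoRNA hosts had the highest median, 0.232 over 24 genes, with 17 above 0 and 7 below. The list holds Gm26917, at 57436 CPM in untreated and 51212 CPM in BLU-A-treated cells. Its members together took 6.26% of the untreated and 5.76% of the BLU-A counts. Of the 24 genes, 2 were over 1 and none under -1, beside 3.35% and 4.5% of all genes tested. Neat1, the scaffold of paraspeckles, rose from 193 to 403 CPM (ratio 2.09, 2.02 to 2.16), and the other is Meg3. Malat1, a lncRNA of nuclear speckles, was at 1616 CPM in untreated cells, 3707 CPM with BLA, 3117 CPM with BLU, 3087 CPM with BLA-A and 2289 CPM with BLU-A. Kcnq1ot1, an imprinted antisense lncRNA, was at 101 and 152 CPM and was chosen after its values were seen. Mir100hg, a host gene of microRNAs, was at 483 and 719 CPM. Over all 693 lncRNA genes with 10 CPM, 50 rose (7.22%) and 3 fell, against 42 that rose (0.467%) and 27 that fell of 8991 protein-coding genes. A gene can pass this filter through the BLU-A library alone. Over all 3148 lncRNA genes tested, 278 rose (8.83%) and 230 fell (7.31%), against 1.81% and 3.82% of protein-coding genes.

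**Figure D5:**
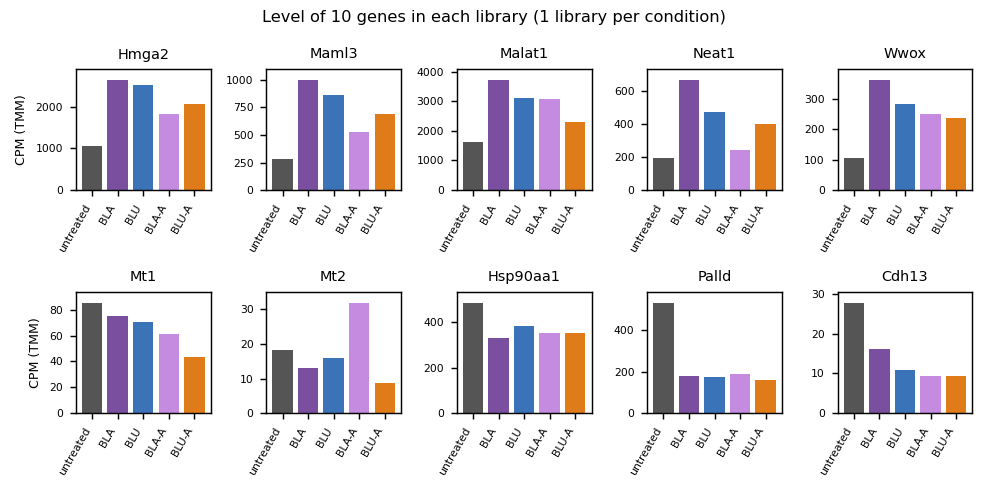
Bars from 0 show the TMM-normalized CPM of 10 genes in each of the 5 libraries, 1 library per condition and so without error bars. Hmga2, Maml3, Malat1, Neat1 and Wwox are higher in the 4 treated libraries than in the untreated one, Mt1 is lowest in BLU-A, and Hsp90aa1, Palld and Cdh13 are highest in untreated cells.

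The caspases and death receptors had a median of 0.182, with 21 of 29 above 0. Casp1, the caspase of the inflammasome, rose from 40 to 115 counts (ratio 2.89, 2.00 to 4.25), and was at 4.06 CPM in BLU- and 4.34 CPM in BLU-A-treated cells. Casp8, the initiator at death receptors, was at 60.6 and 68.9 CPM, and its inhibitor Cflar at 98.8 and 114 CPM. In the Bcl2 family, the prosurvival gene Bcl2 was at 136 and 200.1 CPM, Bcl2l1 at 150.3 and 181 CPM, and the BH3-only gene Bcl2l11, or Bim, at 129 and 161 CPM. Bbc3, or Puma, was at 6.53 and 12.7 CPM and was chosen after its values were seen. Bik, a BH3-only gene, fell from 45 to 13 counts. The p53 targets had a median of 0.0149 over 26 genes. None passed 1 in size, beside 3.35% higher and 4.5% lower of all genes tested, and Trp53 itself was at 73.2 and 75.4 CPM.

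The signalling lists were close to 0, with a few members past the threshold, beside 3.35% higher and 4.5% lower of all genes tested. TGF-beta signalling had a median of 0.117 over 28 genes. None passed 0.5 in size, beside 12.9% higher and 12.0% lower of all genes tested. Smad3 was at 417 and 581 CPM and the latency protein Ltbp1 at 463 and 504 CPM. In the PI3K, AKT and mTOR list, with a median of 0.0199 over 29 genes, Pik3cg was the single member past 1 in size. Lifr, the receptor of leukemia inhibitory factor, fell from 11.3 to 3.74 CPM and Erbb3, a partner of ERBB2, from 4.80 to 2.00 CPM. Erbb3 was higher in BLA-A-treated cells, at 9.45 CPM. Mapk10, a JNK gene of nerve, fell from 5.74 to 1.36 CPM, and the Wnt inhibitor Dkk2 from 2.93 to 0.528 CPM. Jun was at 314 and 307 CPM, and Fos, chosen after its values were seen, at 13.2 and 21.9 CPM. Nhej1, a factor of DNA end joining, rose from 3.41 to 11.8 CPM. Of 40 DNA repair genes it was the single one past 1 in size, beside 3.35% higher and 4.5% lower of all genes tested. Nhej1, Pik3cg, Mapk10 and Dkk2 also belong to genes that the study named on these samples, so their choice is not independent of their direction.

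The keratins and mammary lineage genes had a median of -0.121, with 12 of 15 below 0 and 1 under -1, beside 4.5% of all genes tested. The collagens, laminins and integrins had a median of -0.0398 with 23 of 36 below 0, and the matrix proteases -0.0468 with 15 of 24 below 0. Cytokines and chemokines had a median of 0.0846 over 24 genes, and -0.045 with genes of 10 CPM alone. None passed 1 in size, beside 3.35% higher and 4.5% lower of all genes tested. Csf2, or GM-CSF, was at 9.49 and 15.2 CPM, Il34, a ligand of the CSF1 receptor, at 37.9 and 65.5 CPM, and the neutrophil chemokine Cxcl5 at 99.0 and 71.4 CPM. These 3 were picked with their values known. Tslp, an epithelial cytokine, was at 115 and 123 CPM and Csf1 at 130.5 and 125 CPM. The interferon and MHC class I list had a median of 0.00741 over 35 genes, where Ifi44, an interferon-induced gene, rose from 18 to 54 counts and the class I heavy chain H2-K1 was at 90.9 and 81.8 CPM. Mmp24, a membrane metalloprotease, fell from 8.22 to 2.38 CPM, while Mmp3 was at 360.2 and 293 CPM. Palld, an actin crosslinker also named by the study on these samples, fell from 532 to 159 CPM and was below 192 CPM in the 4 treated libraries. The keratins Krt8 and Krt7 were at 275 and 212 CPM and at 229 and 185 CPM. Ehf, an epithelial ETS factor, fell from 43 to 5 counts. In bulk RNA, fewer cells that use a gene and less of its RNA per cell cannot be told apart.

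Iron and transport genes gave a few more single changes. Cisd1, an iron-sulfur protein of the outer mitochondrial membrane, fell from 13.1 to 6.15 CPM and was at 9.80 CPM in BLU- and 4.48 CPM in BLA-treated cells. The ferritin genes Fth1 and Ftl1 were at 1497 and 1307 CPM and at 758 and 658 CPM. Abcg1, a cholesterol exporter, rose from 3.86 to 9.24 CPM and was at 4.10 CPM in BLU- and 23.1 CPM in BLA-A-treated cells. Its relative Abcb4, a phospholipid transporter, fell from 7.80 to 3.43 CPM. Of the targets of the aryl hydrocarbon receptor, which senses plant compounds, Cyp1b1 was at 48.1 and 40.8 CPM and Tiparp at 132 and 139.9 CPM. A single one of the 9 tested passed 1 in size, beside 3.35% higher and 4.5% lower of all genes tested. This was Serpinb2, with 22 counts in untreated and 0 in BLU-A-treated cells, picked with its value known. Among genes of endocytosis, Cltc, the clathrin heavy chain, was at 506 and 467 CPM, and the median over 35 genes was -0.115. Of lysosome and autophagy genes, none of 42 passed 1 in size, beside 3.35% higher and 4.5% lower of all genes tested. Ctsl was at 834 and 838 CPM and Sqstm1 at 397 and 359.7 CPM. In the circadian clock list, Rora and Npas2 fell, from 200 to 88 and from 70 to 21 counts, and Clock was at 132 and 136 CPM. Hdac9, a deacetylase also named by the study on these samples, fell from 9.68 to 3.09 CPM, beside the rise of Sirt5 in the same list.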

How the data were processed

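The authors deposited raw counts per gene for 40402 genes in 15 columns. Per the study's methods, merged read files were aligned to GRCm39 with STAR and counted by strand in OmicsBox on whole genes, introns included. Mates merged before counting by strand may leave sense and antisense reads of overlapping genes unseparated. The submitters' processing notes name DESeq and DESeq2 1.36.0. Deposited tables of the authors' own fold changes with p-values and FDR, and of GO enrichment, were not used.

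The 3 columns of a condition were averaged and rounded to 1 library. A gene was kept when any of the 5 libraries had 1 CPM or more, which left 17647, and normalized by TMM (edgeR 4.0.16, R 4.3.3). Log2 fold changes used CPM plus 0.5, and a gene counted as changed past 1 in size. There was 1 library per condition, so no test was run. Python 3.11.15, numpy 2.4.6, pandas 2.3.3 and scipy 1.17.1 were used, and the normalization was tested on simulated data. Genes named were the 10 of largest change in each direction with 10 CPM, the 10 most abundant, the 5 largest gains and losses in CPM, list members past 1 or among the 4 with the highest level, 5 outside all other libraries in each direction, and genes overlapping these. The members and lists were chosen with earlier results of these data known. Positions came from GENCODE on GRCm39, where 92.6% of the genes tested had a unique symbol. Alternatives covered the normalization, the pseudocount, the filter, the columns, overlapping genes and the counting interval.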

Additional observations from a re-analysis of the deposited data

Results flagged for a closer look

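In 6 of the genes named, the BLU-A value and that of another treatment lay past the threshold in opposite directions against the same untreated library, and the difference was not tested. Cdh6 was at 2.1 on the log2 scale in BLU-A and at -1.79 in BLU and -2.05 in BLA-A, from 283 counts against 7 and 3, with 56 in untreated cells. Gm29571 was at 4.8 in BLU-A and -1.5 in BLA-A, from 1217 and 2 counts. Gm29677 was at 7.35 in BLU-A and -2.59 in BLA-A, from 31897 and 17 counts. Grm7 was at 4.54 in BLU-A, -1.5 in BLA and -2.43 in BLA-A, from 2519, 26 and 6 counts. Myom2 was at 6.19 in BLU-A, -1.77 in BLA and -1.65 in BLA-A, from 3281, 0 and 1 counts. Rpl3 was at 2.12 in BLU-A and -1.29 in BLA-A, from 3202 and 253 counts.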

How the results depend on the processing

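No paired analysis was possible because each condition has 1 library and no test was run. Of the genes that rose, 591 in all, 1056 were counted with a pseudocount of 0.1 CPM and 129 with 2 CPM, 103 with a filter of 10 CPM in either library, 257 with 1 CPM in both, 79 among the 3103 genes that overlap no other annotated gene, and 361 with a counting interval wholly past the threshold. Of the genes that fell, 794 in all, the same pseudocounts gave 1310 and 79, the same filters 30 and 171, the genes without overlap 145, no filter 1308, and a filter of 1 CPM on average in the 3 libraries not compared, chosen after seeing the data, 254, beside 394 that rose, so that more genes rose than fell under this filter. The filters test fewer or more genes, and a pseudocount weighs most on low values. Size factors of DESeq2 (578 and 800) and scaling by total counts (612 and 827) kept both counts within 1.5 times, with medians of all genes shifted by -0.0146 and -0.0048. Leaving out 1 column of each condition gave 587 to 593 and 797 to 813. Of 384 list medians, 7 moved by over 0.1 and 12 changed sign. Among 292 genes, 119 of 2044 values moved and 0 reversed. With a pseudocount of 2 CPM, 62 of the 292 moved. The counts depend on weakly read genes, and these data hold no estimate of the spread between cultures.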
